A study of Mus musculus with 8 samples.

Results

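The choroid plexus is an epithelium-covered tissue inside the brain's ventricles, next to the hippocampus. In RNA that was pulled down with neuronal ribosomes, 10 genes that mark its epithelium were examined: Ttr, Kl, Folr1, Kcnj13, Aqp1, Clic6, Otx2, Cldn2, Prlr and Sostdc1. They were found by their gene name among the probes of the array that are not controls, which gave 15 probes for the 10 genes out of 55663 probes used. Of these genes, 9 were read well above background on all 8 arrays, and Aqp1 on 0 of 8. The comparison covered 29529 genes, of which 18552 carry a gene symbol.

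The samples were hippocampi of 8 C57BL/6 mice, 4 wild type for Ctcf (WT) and 4 homozygous for a loxP-flanked Ctcf, which Cre deletes (CKO). Ctcf encodes a DNA-binding protein that organises chromatin loops. All 8 mice carried Camk2a-Cre, which acts in forebrain excitatory neurons, and the RiboTag allele, in which Cre switches the ribosomal protein Rpl22 to an HA-tagged form. An antibody to the HA tag then recovered ribosomes with their RNA, and 1 array was hybridised per mouse, in the red channel alone. The mice were at least 3 months old and untreated, and each group held 3 males and 1 female. The sample labels give Cre and the tag in both groups and a wild-type Ctcf gene in the controls, whereas the design text of the series describes the controls as loxP/loxP without Cre. The sample labels were followed here.

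Choroid plexus epithelial cells secrete cerebrospinal fluid and pass hormones, vitamins and ions between blood and fluid. Ttr, transthyretin, carries thyroid hormone and retinol-binding protein and is the textbook transcript of this epithelium. Camk2a-Cre is used to target neurons rather than this epithelium, and the levels of these genes were read as a sign of choroid plexus RNA in the immunoprecipitate. Not all of them are private to the plexus, since Kl, for example, is also known from neurons. Whether their RNA was bound to tagged ribosomes was not tested. In bulk RNA of this kind, fewer cells of a type and less RNA per cell cannot be told apart, and no array of the unprecipitated tissue was analysed here.

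Values are log2 of the scanner's processed signal minus the 75th percentile of the same array, so 0 is the 75th percentile, and a difference is the CKO mean minus the WT mean. Of all probes, between 72.2% (CKO sample 3) and 81.5% (WT sample 1) were well above background, and no spot was saturated. WT sample 1 lay alone on slide 1, WT samples 2 and 3 with CKO samples 1 and 2 on slide 2, and WT sample 4 with CKO samples 3 and 4 on slide 3. The females were WT sample 3 and CKO sample 2, both on slide 2. Ctcf itself was -1.37 ± 0.30 (SD, n = 4) in WT and -2.24 ± 0.29 (SD, n = 4) in CKO, with every CKO sample below every WT sample, and Camk2a, the gene whose promoter drives Cre, differed by 0.057 (SE 0.19). In limma's fit 1 of 29529 genes (0.00339%) had an adjusted p under 0.05, and Ctcf, at an adjusted p of 0.724, was not that gene.

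Of the 10 choroid plexus genes, 5 have a pair of probes, and these pairs are shown because in 4 of the 5 the differences between the groups had opposite signs, not all of them beyond their error. The lines below give the first 30 bases of each 60-base probe, 5′ to 3′, as deposited, in the order in which the genes are described, with the brighter probe of each gene first:
Sostdc1, brighter probe: tctcaagatgtaatgagtagtttgcagtga
Sostdc1, dimmer probe: tttttccagtctcagtgtgaaattatcccc
Folr1, brighter probe: ctgggctttttcctgtgctccgagtaggtg
Folr1, dimmer probe: gtggtggggctctgacagcctctttaataa
Prlr, brighter probe: caggttaacactacagagtcatgaaggaat
Prlr, dimmer probe: cttgaaagacacaactgtgtggatcattgt
Kcnj13, brighter probe: catatcaatggacaaagcattgacaatttc
Kcnj13, dimmer probe: tgtatctcatgtttccttgttctcagtgct
Cldn2, brighter probe: cccaaagccaagagtgagttcaactcatac
Cldn2, dimmer probe: agtgtggaacatctgtgaccaaggtgttgt

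All probe positions are in the mm9 build, as the scanner files give them. Which exon or untranslated region each probe lies in was not analysed here, since no annotation of that build was used. The brighter probe stood for the gene in the comparison of all genes.

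None of the 9 measured choroid plexus genes passed limma's threshold after adjustment over all genes. At an unadjusted p under 0.05, 3 of the 9, Ttr, Kl and Sostdc1, were higher in CKO and 0 lower, against 2.5% of all genes higher and 2.8% lower. In the same 3 genes every CKO sample lay above every WT sample, which held for 1.96% of all genes. Under quantile normalization, normexp and the authors' deposited values this separation held for Ttr alone, and Kl and Sostdc1 overlapped. At the dimmer Sostdc1 probe the difference had the other sign, -0.33 (SE 0.17). The 10 genes and all gene lists were chosen with earlier results of these data known. Counts set against all genes, here and below, are therefore a description and no independent test. The median difference over the 9 was 0.37, with 6 above 0, while the median over all genes was -0.078, with 41.5% above 0. That background is not level: over 10 equal bins of the genes by mean signal, the median difference ran from -0.52 in the dimmest bin to 0.16 in the brightest. Of the 9 genes, 8 lay above the median of their own bin. The same count for the other gene lists is given below, and some had shares as high. Whether this slope with signal has a part in the choroid plexus values was not tested.

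Among the secreted proteins, Ttr had the largest difference of the 9 genes. Its probe lies at chr18:20828519-20828577 (plus strand). Ttr read 2.0, 2.44, 0.92 and 2.31 in WT samples 1 to 4, and 3.29, 3.51, 3.00 and 2.50 in CKO samples 1 to 4. The lowest reading was the female WT mouse and the highest the female CKO mouse, and the groups were separated by the narrow gap between WT sample 2 and CKO sample 4. The means were 1.92 ± 0.69 (SD, n = 4) in WT and 3.08 ± 0.44 (SD, n = 4) in CKO, a difference of 1.16 (SE 0.36) or 2.23-fold, with an unadjusted p of 0.0102 and an adjusted p of 0.724 in limma's fit. The median difference in Ttr's signal bin was 0.14.

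The Ttr difference was also taken within slides and within the males, and these values were not shown to differ from one another after adjustment. Ttr differed by 1.72 (SE 0.50) within slide 2, which holds both females, and by 0.44 (SE 0.62) within slide 3, where WT has 1 array. With slide as a block it was 1.21 (SE 0.43), and in the males alone 0.68 (SE 0.27). Without WT sample 3 it was 0.83. The difference between the male and the female effect was -1.91, with an unadjusted p of 0.00874 and an adjusted p of 1.0 in limma's interaction fit over all genes, and it rests on 1 female per group. Slide 3 against slide 2 gave a difference of effects of -1.28, at an unadjusted p of 0.160 (adjusted p = 1.0, limma).

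Kl, or klotho, acts as the coreceptor for the hormone FGF23 and is also shed into cerebrospinal fluid. Its probe lies at chr5:151795712-151795771 (plus strand). Kl read -1.72, -1.97, -2.21 and -1.71 in WT samples 1 to 4, and -1.58, -1.61, -1.33 and -1.36 in CKO samples 1 to 4. The CKO samples were all higher, those on slide 3 the most, and the lowest reading was again WT sample 3. The difference was 0.43 (SE 0.17), 1.35-fold, with an unadjusted p of 0.0332 and an adjusted p of 0.724 in limma's fit. It was 0.49 within slide 2, 0.37 within slide 3 and 0.38 in the males alone, a narrower span than that of Ttr.

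Sostdc1 is a secreted antagonist of BMP and Wnt signals. Its brighter probe (chr12:37044197-37044256, plus strand) read -2.87, -2.35, -3.01 and -2.35 in WT samples 1 to 4, and -2.17, -2.30, -1.93 and -2.18 in CKO samples 1 to 4. WT samples 1 and 3 were low, while WT samples 2 and 4 came close to the lowest CKO sample. This probe differed by 0.50 (SE 0.20), 1.41-fold, with an unadjusted p of 0.0348 and an adjusted p of 0.724 in limma's fit. The dimmer probe (chr12:37044532-37044591), which starts 335 bases further along, read -4.33, -4.02, -4.06 and -3.99 in WT and -4.40, -4.20, -4.79 and -4.34 in CKO. There 3 of the 4 WT samples lay above every CKO sample, the opposite side from the brighter probe, with a difference of -0.33 (SE 0.17). Over the 8 arrays the readings of the Sostdc1 pair had a correlation of -0.53, and the mean of the pair differed by 0.084.

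**Figure D1:**
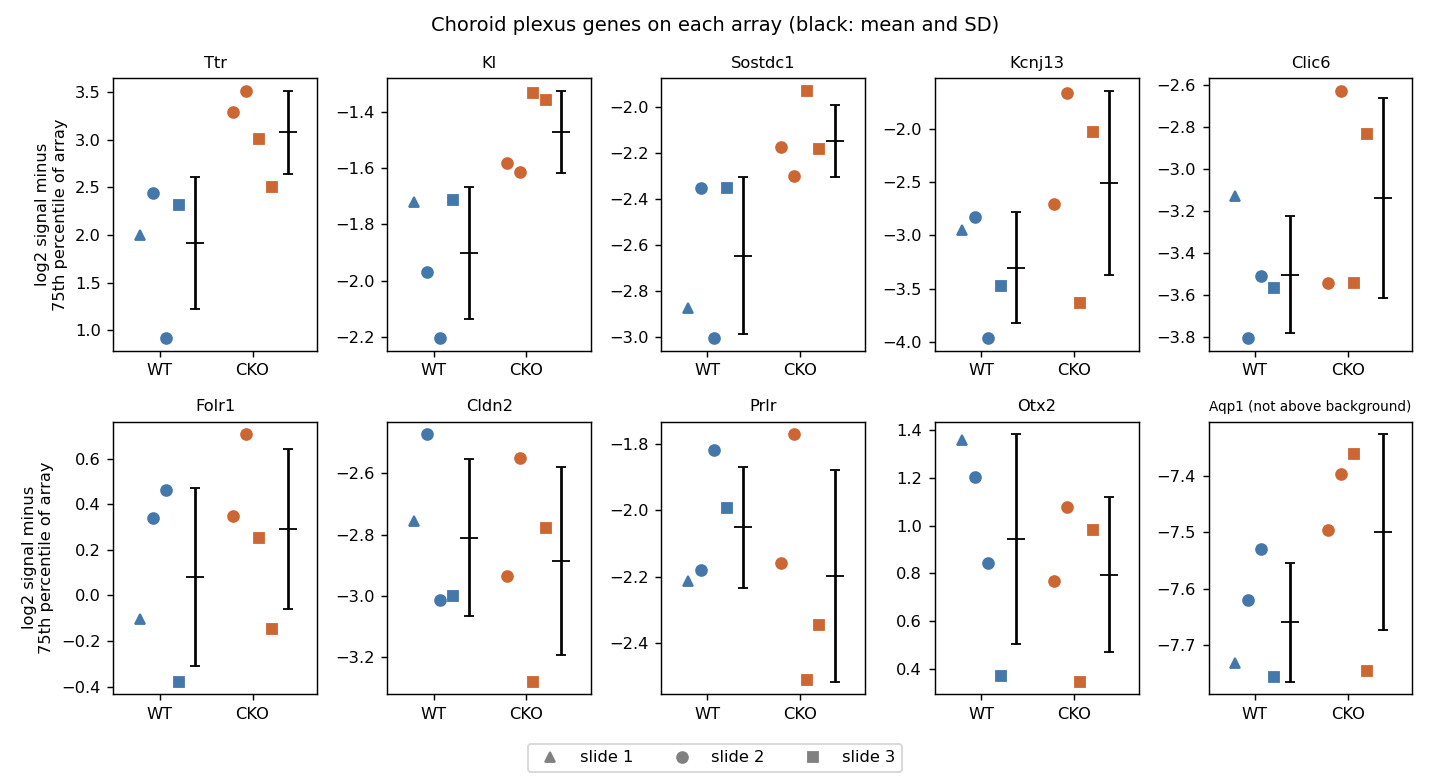
Log2 signal minus the 75th percentile of the array (vertical axis) for each of the 10 choroid plexus genes, at the probe that stands for the gene, in the 4 WT and 4 CKO samples (points, shaped by slide), with the group mean and SD in black. Ttr, Kl and Sostdc1 show no overlap between groups on this scale (Ttr alone under quantile normalization, normexp and the authors' values), the other genes overlap, and Aqp1 was not above background on any array.

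Of the receptors, Folr1, the folate receptor that moves folate into cerebrospinal fluid, and Prlr, the prolactin receptor, both overlapped between the groups. The brighter Folr1 probe (chr7:109016972-109017031, minus strand) read -0.10, 0.34, 0.46 and -0.38 in WT samples 1 to 4 and 0.35, 0.71, 0.25 and -0.15 in CKO samples 1 to 4. WT sample 3, the lowest for Ttr, was the second highest for Folr1. The difference was 0.21 (SE 0.25, adjusted p = 0.762, limma). The dimmer probe (chr7:109006846-109006905) differed by 0.57 (SE 0.35), and Folr1 was the one pair whose probes ran the same way, with a correlation of 0.78 over the arrays.

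Prlr ran slightly lower in CKO at its brighter probe (chr15:10259066-10259125, plus strand). That probe read -2.21, -2.18, -1.82 and -1.99 in WT and -2.16, -1.77, -2.51 and -2.35 in CKO. The highest reading and the lowest reading were both CKO samples, so the groups overlapped throughout. The difference was -0.15 (SE 0.20, adjusted p = 0.784, limma). At the dimmer probe (chr15:10255629-10255688) it was 0.25 (SE 0.49), and the Prlr pair had a correlation of 0.29 over the arrays.

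On the main scale the channels and transport proteins gave no difference at an unadjusted p under 0.05 in limma's fit. With quantile normalization, normexp and the authors' values, Kcnj13 and Clic6 did, higher in CKO, and neither passed after adjustment. Kcnj13, an inward-rectifier potassium channel of the epithelium's apical membrane, read -2.95, -2.82, -3.97 and -3.47 in WT and -2.70, -1.67, -3.63 and -2.02 in CKO at its brighter probe (chr1:89282991-89283050, minus strand). CKO samples 2 and 4 were high and CKO sample 1 just above the WT samples, while CKO sample 3 lay inside the WT range. The difference was 0.80 (SE 0.43), 1.74-fold, with an unadjusted p of 0.0985 and an adjusted p of 0.724 in limma's fit, and in the males alone it was 0.29.

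The dimmer Kcnj13 probe (chr1:89282859-89282918) starts 132 bases away and was well above background on only 2 of 4 arrays in each group. It read -3.57, -3.39, -6.23 and -5.50 in WT and -6.69, -3.08, -6.66 and -3.83 in CKO, so the readings spread widely in both groups. Its difference was -0.39 (SE 1.01). The gene lies inside Gigyf2, a protein-coding gene, which differed by 0.32 (SE 0.30, adjusted p = 0.734, limma), and whether the labelling kept the strand is not given in the sources used here. By the gene table, Ttr, Folr1 and Prlr each overlap a long noncoding RNA as well (Gm16090, Gm35597 and Gm41268).

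Clic6, an intracellular chloride channel protein, read -3.13, -3.81, -3.51 and -3.57 in WT and -3.54, -2.63, -3.54 and -2.83 in CKO (chr16:92541363-92541422, plus strand). CKO samples 2 and 4 were again high and the others lay among the WT samples. The difference was 0.37 (SE 0.26, adjusted p = 0.724, limma). Aqp1, the water channel of the apical membrane and an abundant transcript of the plexus, was not well above background on any array at its single probe (chr6:55298480-55298539, plus strand). No difference is given for Aqp1. The probe's 60 bases hold 30% G and C, the lowest share among the 15 probes.

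Cldn2, the claudin of leaky tight junctions, also had probes with differences of opposite sign. The brighter probe (chrX:136343889-136343948, plus strand) read -2.75, -2.47, -3.01 and -3.00 in WT and -2.94, -2.55, -3.28 and -2.78 in CKO, with full overlap and a difference of -0.076 (SE 0.21, adjusted p = 0.887, limma). The dimmer probe (chrX:136345244-136345303), 1355 bases further along, read -4.03, -3.45, -4.09 and -3.96 in WT and -3.05, -2.61, -3.84 and -3.29 in CKO. There 3 CKO samples lay above all WT samples, and the difference was 0.69 (SE 0.28), at an unadjusted p of 0.0376 in limma's fit of probes. The Cldn2 pair had a correlation of 0.53 over the arrays.

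Otx2, the homeodomain factor that specifies and maintains choroid plexus epithelium, read 1.36, 1.20, 0.84 and 0.37 in WT and 0.77, 1.08, 0.35 and 0.98 in CKO (chr14:49277855-49277914, minus strand). The groups overlapped, and on slide 3 both the WT sample and CKO sample 3 were low. The difference was -0.15 (SE 0.26, adjusted p = 0.821, limma). With slide as a block it was 0.057, so its sign was not fixed.

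**Figure D2:**
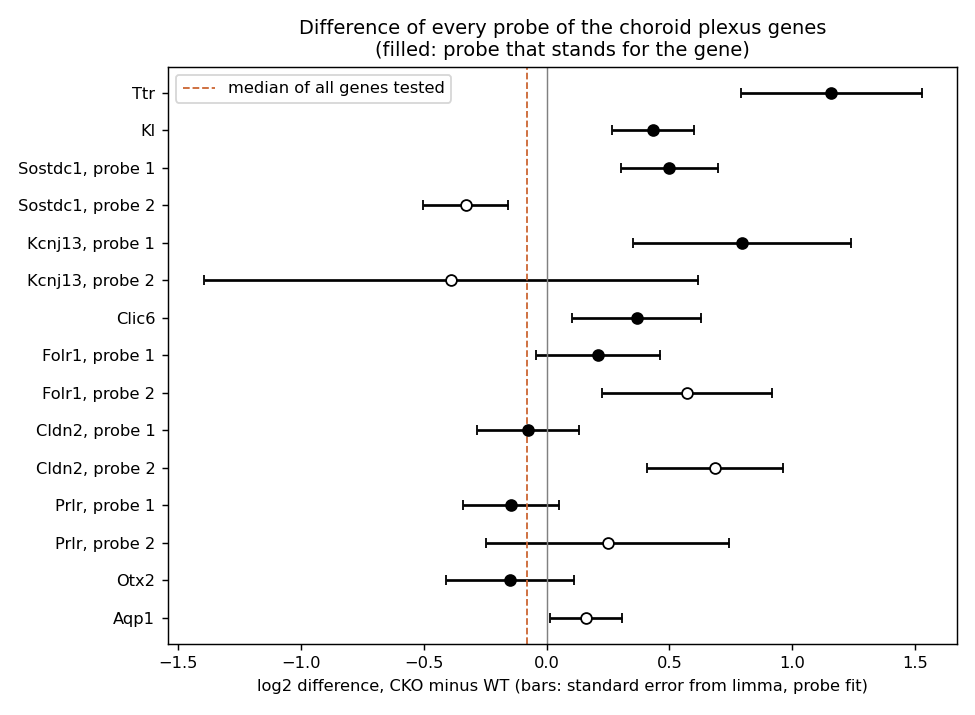
Log2 difference, CKO minus WT, with limma's standard error (horizontal axis) for each of the 15 probes of the 10 genes, filled where the probe stands for the gene, with the median of all genes as a dashed line. Probes of Sostdc1, Kcnj13, Cldn2 and Prlr fall on both sides of 0, and those of Folr1 on one side.

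Of the 14 probes that passed the filter on dim probes, 9 had a difference above 0, against 39.4% of all 44316 probes that passed it. In limma's fit of all 55663 probes, 4 of the 15 had an unadjusted p under 0.05 and were higher in CKO and 0 were lower, against 1.95% of all probes higher and 3.25% lower. Those 4 were the probes of Ttr and Kl, the brighter Sostdc1 probe and the dimmer Cldn2 probe. The probes of Sostdc1, Kcnj13, Cldn2 and Prlr gave differences of opposite sign. For Kcnj13 and Prlr every one of these differences was within 2 standard errors of 0, so neither sign was resolved. The dimmer Kcnj13 probe was above background on only part of the arrays. The dimmer Sostdc1 probe (-0.33, SE 0.17) and the brighter Cldn2 probe (-0.076, SE 0.21) were also within 2 standard errors of 0. In no pair were both opposite signs resolved.

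The genes did not go up and down together across the mice as a single group. CKO sample 2 was the highest array for 5 of the 9 genes, and WT sample 3 was the lowest for 4. CKO sample 3 was the lowest for 3 genes, Cldn2, Prlr and Otx2, and the highest for 2, Kl and Sostdc1. The median over the 9 genes of the reading minus the gene's own mean was 0.35 in CKO sample 2 and between -0.22 and 0.11 in the other 7 arrays. It was as low in CKO sample 3, at -0.22, as in WT samples 3 and 4, at -0.19 each.

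**Figure D3:**
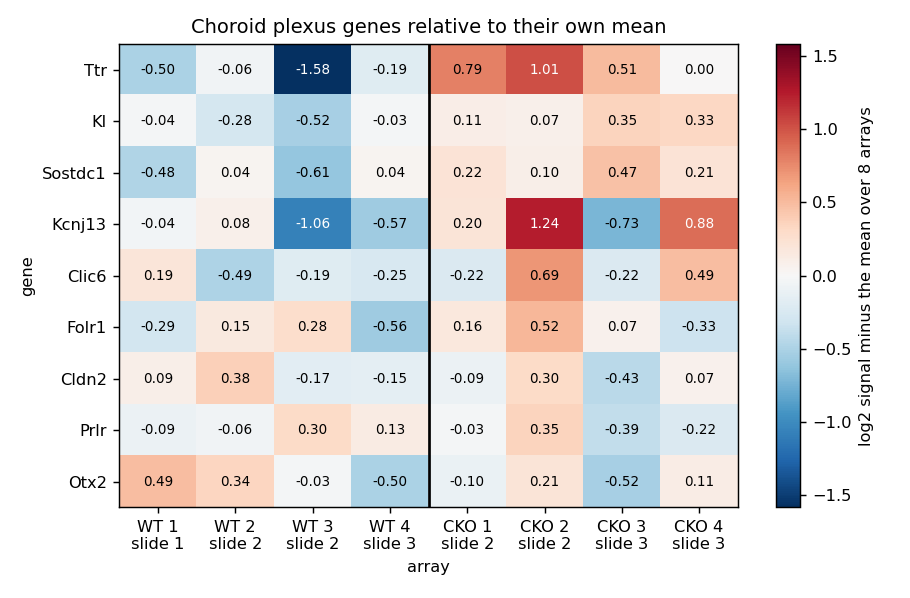
Reading of each measured choroid plexus gene minus its mean over the 8 arrays, in log2 units (colour and printed value), by gene (vertical) and array with its slide (horizontal). Ttr, Kl and Sostdc1 are below or near their mean in all WT samples and at or above it in all CKO samples, while Folr1, Cldn2, Prlr and Otx2 have values above and below their mean in both groups.

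Across the 8 arrays the readings of Ttr correlated most with those of Sostdc1 and Kl. Pearson's r was 0.82 with Sostdc1 (Spearman's rho 0.83), with an exact two-sided permutation p of 0.0118 (0.0154 for rho) that came to 0.0942 (0.123 for rho) after Benjamini-Hochberg adjustment over 8 relations. It was 0.71 with Kl (rho 0.71), with an exact permutation p of 0.0473 (0.0576 for rho), adjusted to 0.189 (0.185 for rho). No relation passed after adjustment, and both genes differ between the groups in the same direction as Ttr.

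Without WT sample 3 and CKO sample 2, the arrays farthest from the Ttr median, r was 0.79 with Sostdc1 and 0.45 with Kl. After the slide mean was subtracted over the 7 arrays of slides 2 and 3, r was 0.93 and 0.90. After the group mean was subtracted, r was 0.59 with Sostdc1 and 0.29 with Kl. For Kcnj13, r was 0.63 (rho 0.69), with an exact permutation p of 0.0890 (0.0694 for rho), adjusted to 0.237 (0.185 for rho), and it was -0.049 without the same 2 arrays, so that relation rests on them. Values for the remaining genes were 0.29 for Clic6, 0.24 for Folr1, 0.16 for Cldn2, -0.12 for Otx2 and -0.22 for Prlr, with exact permutation p from 0.485 to 0.776 and an adjusted value of 0.776 each. Their rho ran from -0.19 for Otx2 to 0.33 for Folr1, with exact permutation p from 0.428 to 1.0, adjusted to between 0.760 and 1.0.

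The genes whose readings were most like those of Ttr were not on the choroid plexus lists used here. Their expression in the plexus was not examined, and the ranking was made without a test. Among 16722 genes with a symbol that were well above background on all arrays, the 10 with the highest r to Ttr over the 8 arrays were Eps8l1 (0.97), Prkar1b, Cck, Mdh2, Cdc42se1, Dnajc24, Hap1, Ednrb, Mtch1 and Fau (0.92). None of these 10 is on any of the 12 gene lists used here. Enpp2 held rank 34 (r of 0.87), Sostdc1 rank 108, Kl rank 511 and Kcnj13 rank 1105. Of other choroid plexus genes named below, Htr2c held rank 209, Col8a2 rank 460, Slc29a4 rank 515, Rdh5 rank 618 and Prr32 rank 11330. Folr1, with r of 0.24, held rank 5688.

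Beyond the 10 genes, 35 other genes of choroid plexus epithelium were listed, and 27 of them were measured, 25 of these well above background on all arrays. None of the 27 passed limma's threshold after adjustment, 15 were above 0 and 12 below, with a median difference of 0.11. Their summed signal was 28.1 to 37.4 times the array's 75th percentile in WT and 31.9 to 39.8 in CKO, so these ranges overlapped too. At an unadjusted p under 0.05, 2 were higher in CKO and 0 lower, and the same 2, Enpp2 and Ecrg4, had groups that did not overlap. Over all genes these shares were 2.5% higher and 2.8% lower at that p, and 1.96% without overlap. Not measured above the filter were Col8a1, Col9a3, Steap1, Kcne2, Lmx1a and Krt8, all with probes on the array, and Mfrp and Slc2a12 had no matching gene row.

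Enpp2, the secreted enzyme autotaxin that makes lysophosphatidic acid and is also made by oligodendrocytes, read 1.74, 1.79, 1.48 and 1.54 in WT samples 1 to 4. In CKO samples 1 to 4 it read 2.19, 2.59, 2.28 and 2.11. The CKO samples were all higher, with a clear gap between the groups. The difference was 0.66 (SE 0.17), 1.57-fold, with an unadjusted p of 0.0035 and an adjusted p of 0.724 in limma's fit.

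Ecrg4, a secreted peptide precursor of the plexus, was picked out after its values were seen. It read -4.62, -4.53, -6.32 and -5.10 in WT and -3.07, -2.77, -3.34 and -3.91 in CKO, and WT sample 3 was once more the lowest. On 3 of the WT arrays and all 4 CKO arrays this probe was well above background. Its difference was 1.87 (SE 0.41), with an adjusted p of 0.703 in limma's fit. The lowest difference of the same list was that of Lbp, at -1.43 (SE 0.75, adjusted p = 0.724, limma). The Lbp probe was dim too and cleared background on 3 WT arrays and on 2 CKO arrays. For Lbp the groups overlapped.

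The other named genes of this list overlapped between the groups. The serotonin receptor gene Htr2c, which neurons express too, differed by 0.37 (SE 0.18), and the collagen gene Col8a2 by 0.36 (SE 0.19). Rdh5, a retinol dehydrogenase, differed by 0.39 (SE 0.25), Slc29a4, a monoamine transporter, by 0.26 (SE 0.19), and Prr32 by -0.44 (SE 0.38).

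Of 20 genes that work with the plexus proteins in ion, folate, thyroid hormone and retinol transport or as partners of klotho, all 20 were measured and 0 passed limma's threshold. Above 0 were 15, with a median difference of 0.087, and 1 had an unadjusted p under 0.05 and was higher in CKO, against 2.5% of all genes. That gene was Fxyd1, a regulator of the sodium pump found in plexus and in astrocytes, at 0.41 (SE 0.15), with groups that did not overlap. Rbp4, the retinol-binding protein that Ttr carries, differed by 0.27 (SE 0.21), and Slc46a1, the folate transporter that works with Folr1, by 0.29 (SE 0.22). Fgfr1, the receptor that pairs with klotho, differed by -0.20 (SE 0.15), the sodium pump subunit Atp1b1 by 0.27 (SE 0.19) and the thyroid hormone transporter Slco1c1 by -0.46 (SE 0.48).

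Markers of other cells were read in the same way, and none passed limma's threshold in any list. Of all genes, 41.5% had a difference above 0. Ependyma, the ciliated lining that borders the plexus, had 10 of 12 genes measured, 5 above 0, with a median of -0.0034, and its summed signal ranged from 2.80 to 3.28 times the array's 75th percentile in WT and from 2.31 to 3.79 in CKO. Foxj1 and Ccdc153 of that list differed by 0.012 and -0.21. Stromal and meningeal fibroblasts had 6 of 11 above 0 (median 0.026; Igf2 0.64, Dcn 0.026, Lum -0.48), and their summed signal was 9.17 to 10.1 in WT and 8.87 to 11.3 in CKO. By comparison the summed signal of the 9 choroid plexus genes was 5.96 to 10.1 in WT and 9.87 to 16.6 in CKO, and without Ttr it was 3.11 to 4.63 in WT and 3.57 to 5.21 in CKO. The ranges overlapped with and without Ttr.

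Endothelium had 4 of 11 genes above 0, with a median of -0.071 (Cldn5 0.22, Pecam1 -0.85, Flt1 0.045). Its summed signal was 4.53 to 6.20 in WT and 4.06 to 6.32 in CKO, and Pecam1 was the one gene of that list at an unadjusted p under 0.05, where 2.8% of all genes were lower. The glial lists had medians above 0, with 8 of 10 astrocyte genes above 0 and a median of 0.24 (Gfap 0.34, Aqp4 -0.29, Slc1a3 0.32) and 8 of 10 oligodendrocyte genes above 0 and a median of 0.18 (Mbp 0.21, Mog 0.049). Of the microglia genes, 10 of 11 were above 0, with a median of 0.24 (Cx3cr1 0.45, P2ry12 -0.10, Tmem119 0.0041). These counts stand against 41.5% of all genes above 0, and the median of the brightest signal bin was itself 0.16. The summed signal was 28.3 to 31.0 in WT and 30.6 to 41.7 in CKO for astrocytes, 39.8 to 53.7 and 43.0 to 47.6 for oligodendrocytes, and 65.8 to 88.1 and 76.4 to 106 for microglia. Such a sum is weighted towards the brightest genes of a list. The microglia sum was mostly that of the Itgam probe (mean 5.83 in WT and 6.08 in CKO). Each of these 3 glial lists had 2 genes higher in CKO at an unadjusted p under 0.05, against 2.5% of all genes.

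Excitatory neurons, the cells in which Camk2a-Cre switches on the tag, had 6 of 8 genes above 0 and a median of 0.21 (Slc17a7 0.24, Neurod6 0.41), with a summed signal of 108 to 127 in WT and 117 to 150 in CKO. Genes of thalamus and habenula, which border the hippocampus, had 1 of 7 above 0 and a median of -0.13 (Tcf7l2 -0.13, Prkcd -0.34, Slc17a6 0.20), and blood genes had 1 of 3 above 0 (median -0.083; Hba-a1 0.14, Alas2 -0.083). The summed signal of the thalamus and habenula genes was 3.18 to 4.51 in WT and 2.92 to 4.77 in CKO, and that of the blood genes 5.79 to 7.14 and 4.79 to 8.26. The medians of the astrocyte, oligodendrocyte, microglia and neuron lists were on the same side of 0 as that of the choroid plexus genes. Above the median of their own signal bin lay 9 of 10 ependyma, 7 of 11 fibroblast, 6 of 11 endothelium and 6 of 10 astrocyte genes. So did 8 of 10 oligodendrocyte, 10 of 11 microglia, 5 of 8 neuron, 3 of 7 thalamus and habenula and 1 of 3 blood genes. Among other choroid plexus genes it was 19 of 27, and among transport partners 15 of 20. A high count was thus not particular to the 9 genes. The part of any of these lists in the choroid plexus values was not tested.

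**Figure D4:**
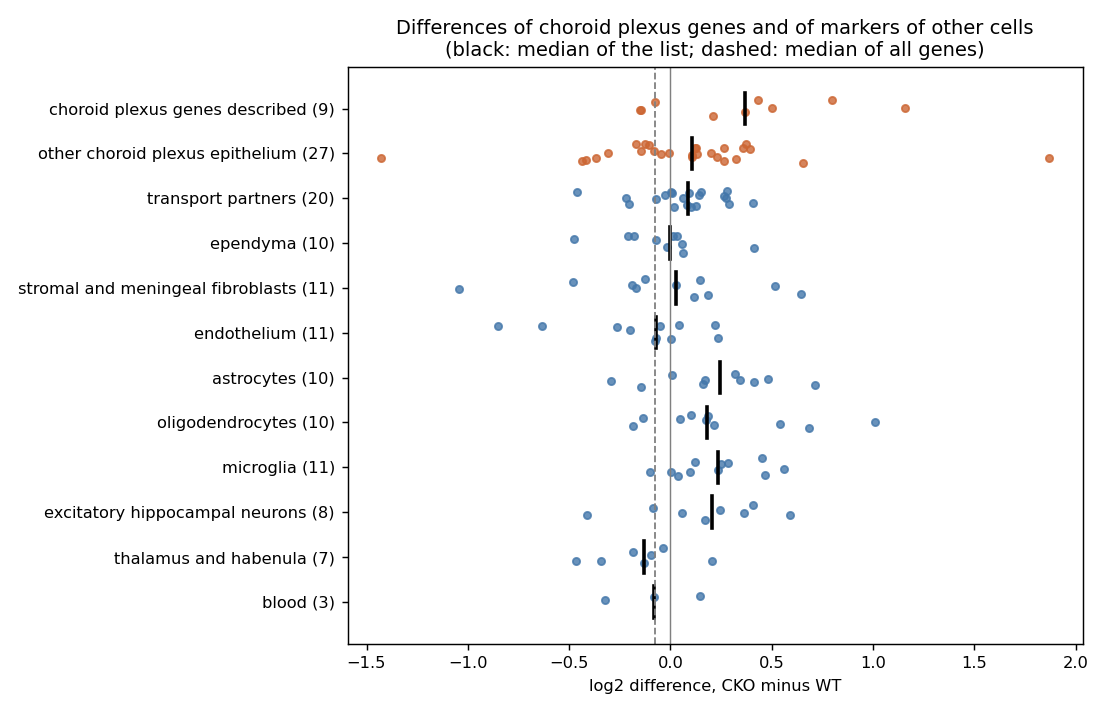
Log2 difference, CKO minus WT (horizontal axis), of each measured gene (points) of the choroid plexus genes described, the other choroid plexus genes, their transport partners and markers of 9 other cell types or tissues, with each list's median as a black bar and the median of all genes as a dashed line. The choroid plexus genes described have a median of 0.37, and the other choroid plexus epithelium genes a median of 0.11.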

How the data were processed

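The deposited scanner files hold, per the file headers, red-channel intensity for each spot, with the background-subtracted processed signal, made with Agilent Feature Extraction 11.5 per the submitters' processing notes. The authors' value table holds intensity too; its rank order on each array matched that of the background-subtracted signal (Spearman's rho rounds to 1.0), its medians were 1263 to 1987, and its scaling is not given in the sources used here. Of 62976 spots, control spots and flagged outliers were left out and spots of a probe averaged. From the deposited processed intensity, log2 values were taken and each array's 75th percentile was subtracted. A probe was kept if 4 or more of the 8 arrays read it well above background (44316 probes), and the probe with the highest mean stood for a gene. Accessions were named through a RefSeq gene table of GRCm38.p6 (28324 probes matched). Its coordinates were used to find overlapping genes and not to place the probes. The genotype comparison used lmFit and eBayes of limma 3.58.1 (R 4.3.3; two-sided, Benjamini-Hochberg over all genes, threshold 0.05), after the fit was tested on simulated data. Unadjusted p-values are given beside them as a description. Within-slide values come from 1 fit with a mean for each group on each slide and a shared spread, so the single WT array of slide 3 is assumed to vary like the others. The labels number the mice as biological replicates; the number of arrays limits the precision.

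The 10 genes and all gene lists were chosen with earlier results of these data known. Ecrg4 and Lbp were named outside the rule that follows. Named are the 10 genes; in the lists of other choroid plexus genes and transport partners, genes past the threshold and the 6 with the smallest unadjusted p among those well above background on all arrays; in the other lists the first 3 genes where measured (1 of them is not reported here); and the 10 genes most like Ttr. Alternatives covered scaling, background correction, the authors' values, the filter, the choice of probe, slide, sex, the replicate number, array weights and each mouse left out. The replicate numbers pair no mice by the labels, and same-numbered samples' deviations from the group means correlated at -0.32, 0.39, -0.42 and 0.068.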

Additional observations from a re-analysis of the deposited data

How the results depend on the processing

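No choroid plexus gene passed the adjusted threshold under any of 23 alternatives, where the lowest adjusted p was 0.290 (limma, array weights), and 194 of 207 differences kept their direction. Ttr, Kl, Folr1, Kcnj13, Clic6 and Sostdc1 stayed above 0 in these 23, but with each probe tested on its own the dimmer probes of Kcnj13 (-0.39) and Sostdc1 (-0.33) were below 0. Otx2 turned to 0.057 with slide as a block and 0.29 within slide 3. Cldn2 turned to 0.068 with median scaling, 0.12 with quantile normalization, 0.061 with normexp, 0.19 with the authors' values, 0.30 with the mean of its probes, 0.037 without WT sample 2 and 0.056 without CKO sample 3 (-0.19 to 0.056 with 1 mouse left out). Prlr turned to 0.0071 with quantile normalization, 0.067 with the authors' values, 0.051 with the mean of its probes and 0.035 within slide 2. The median difference over the genes was 0.67 with the authors' values and 0.20 to 0.47 with 1 mouse left out. Genes at an unadjusted p under 0.05, all higher in CKO, numbered 5 with quantile normalization or normexp, 0 within slide 3, 1 in the males alone, and 1 (without WT sample 3 or CKO sample 4) to 3 with 1 mouse left out. The 5 with quantile normalization or normexp were Ttr, Kl, Kcnj13, Clic6 and Sostdc1. With the authors' values there were 4, Sostdc1 not among them. With median scaling or array weights there were 4, Clic6 not among them. Groups did not overlap for Ttr alone under quantile normalization, normexp and the authors' values. Median scaling moved the median of all genes to 0.065. The number of all genes past the adjusted threshold was 1, and 0 with quantile normalization, the authors' values, within slide 2, in the males alone and with each probe tested; 4 with normexp; 2 without a filter; 5 with probes above background on all arrays; 13 with slide as a random block; 3 with sex as a covariate; 11 with array weights; and 0 to 2 with 1 mouse left out. The number of genes with r above 0.7 to Ttr was 2, and 1 (without WT sample 3) to 3 with 1 mouse left out. The replicate numbers are shared numbers only; with the replicate number as a block, 0 of all genes passed and 2 choroid plexus genes, Ttr and Kcnj13, had an unadjusted p under 0.05. The cause of these changes was not tested. There were 4 mice a group, 1 of them female, and WT sample 3 was low for several genes. Small differences of dim probes were not resolved after adjustment, and neither was the larger one of the brighter Ttr probe (1.16, adjusted p = 0.724, limma).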
